A study of Mus musculus with 6 samples.

Results

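Transcripts of the proteasome were followed in RAW264.7 cells, an established mouse macrophage line that the labels give as BALB/c. The genes are those whose symbol begins with Psma, Psmb, Psmc, Psmd, Psme, Psmf or Psmg followed by a digit and that GENCODE M21 lists as protein-coding. They were 50 of the 52636 genes in the deposited tables, after 4 pseudogenes that share the symbols were left out. RNA sequencing covered 6 libraries. The 3 C2S libraries came from cells kept 24 h with 150 µg/ml of C2S, which the labels call an extract, and the 3 PM_control libraries from cells with 0 µg/ml for the same time. The labels spell out neither C2S nor PM and do not say what the controls received in place of the extract. Separate cultures are not stated for the replicates, so each p-value sets a difference against the spread of these samples alone, and that spread may be technical.

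The proteasome is the protease that degrades proteins tagged with ubiquitin. Its core particle, the 20S proteasome, is a barrel of stacked alpha and beta rings, and the peptide-cutting sites lie inside on the beta subunits encoded by Psmb5, Psmb6 and Psmb7. A cap, the 19S regulatory particle, binds ubiquitin chains, unfolds the substrate with a ring of ATPases and removes the ubiquitin with its lid. In macrophages exposed to interferon, the alternative catalytic subunits Psmb8, Psmb9 and Psmb10 replace their constitutive counterparts to form the immunoproteasome, which favours peptides that bind class I molecules.

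Total estimated counts per library ranged from 8594473 to 10665867. All 8 macrophage markers examined were at 1 TPM or more in every library. Among markers of 6 other cell types, Cd79a, Ly6g and S100a8 reached 1 TPM in some library, and the summed level of any of these lists was at most 3.85 TPM. The B cell list summed to 1.39 to 2.57 TPM with C2S and 0 to 0.38 TPM in the controls, and its part in the results was not tested. The libraries are of bulk RNA and their values are relative to a library total, so fewer cells and less RNA per cell cannot be told apart.

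By their median, core subunits were the most abundant class and assembly chaperones were well below them. TPM is the deposited level per transcript length, and it is used here wherever genes are compared with each other. In the controls the 14 constitutive core subunits lay between 77.6 TPM (Psma2) and 443 TPM (Psmb4), with a median of 283 TPM. The 17 subunits of the 19S particle in the set lay between 84.7 TPM (Psmc6) and 310.4 TPM (Psmd2). Their median was 150.1 TPM. Subunits with other symbols, such as Adrm1, are not counted in the 19S particle here. The 7 assembly chaperones had a median of 50.9 TPM. Summed over the 50 genes, transcripts of the proteasome made up 0.797%, 0.829% and 0.83% of all TPM in the PM_control libraries and 0.796%, 0.793% and 0.766% in the C2S libraries. The C2S sums were the lower ones, but PM_control replicate 1 was only just above the highest of them.

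**Figure D1:**
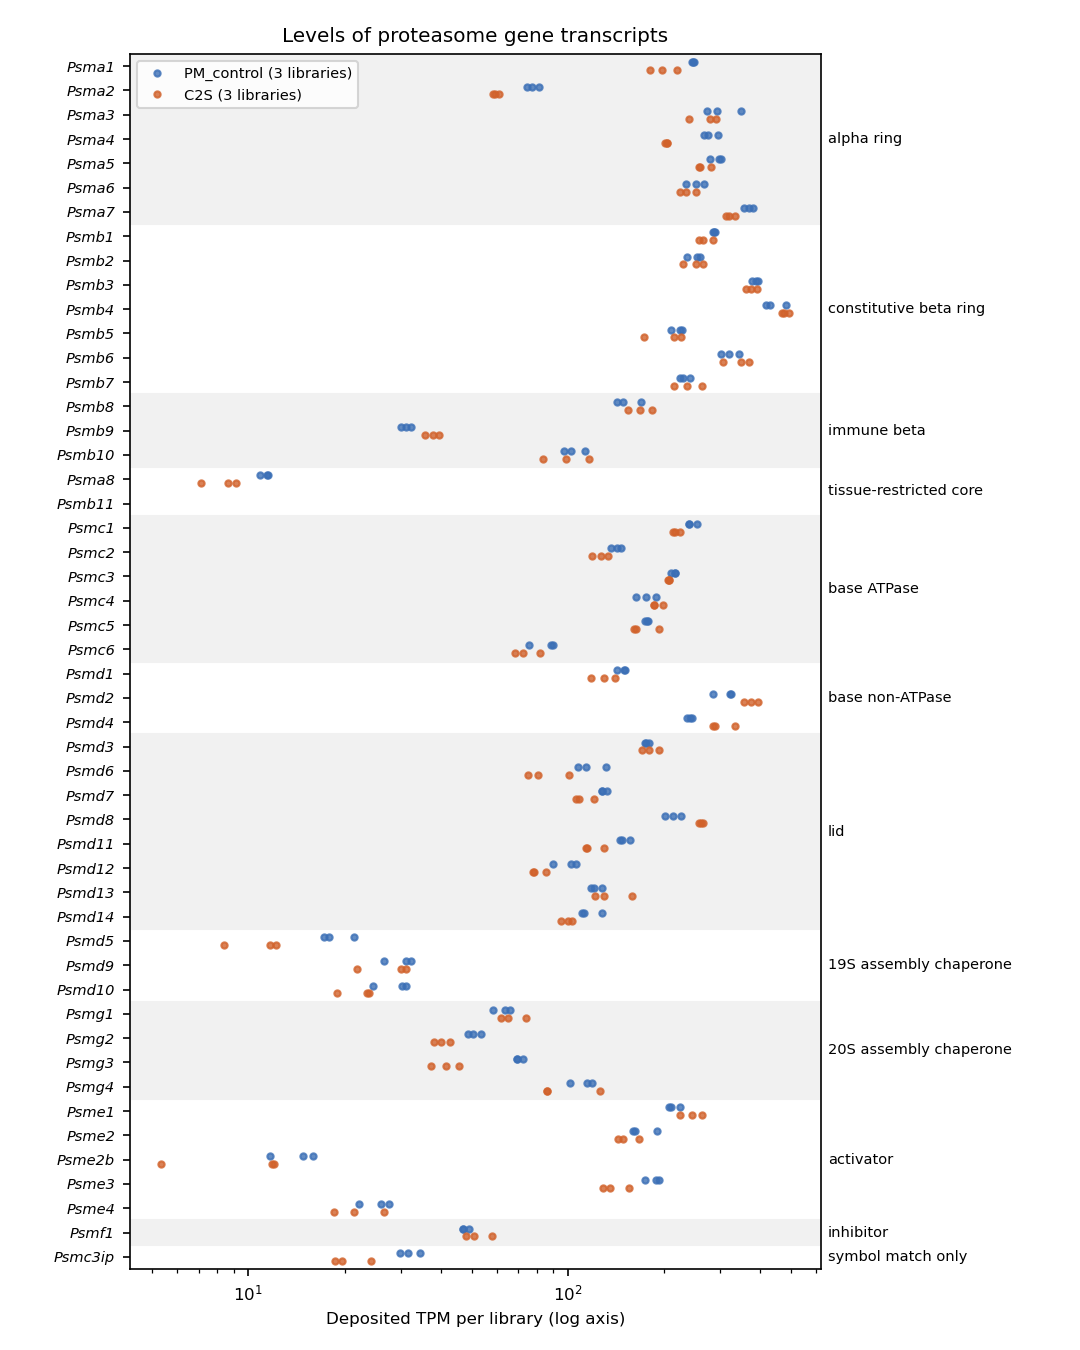
Deposited TPM of each proteasome gene on a log axis, 1 point per library, with PM_control in blue and C2S in orange, grouped by role. Core subunits sit mostly between 200 and 500 TPM, Psma2 lies lowest among them at 77.6 TPM in the controls, and Psmb11 is not drawn because it had 1 count in all.

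Most proteasome transcripts differed little between the groups. Of the 50 genes, 49 had enough counts to be tested. With C2S, 10 were higher, 10 were lower and 29 did not pass the test (edgeR's quasi-likelihood test, Benjamini-Hochberg adjusted p under 0.05 over all 11561 genes tested). That is 40.8% of the tested members, where 55.4% of all genes tested were called, 27% as higher and 28.4% as lower. Among the genes within the members' range of mean CPM (4.67 to 631 CPM, where CPM is the count scaled to library size with TMM), 57.6% were called. The 2 groups did not overlap in CPM for 21 of the 49, where 61.1% of all genes tested had groups without overlap. Overlap of single genes is given in TMM-scaled CPM unless TPM is named, and of the called members without it Psmb4, Psmc4, Psmd13 and Psme1 overlapped in TPM. Non-whole counts, a sign of reads shared with other genes, were present in 7 members, Psma3, Psma4, Psma5, Psmb3, Psmb5, Psmd2 and Psmg3, whose counts are uncertain.

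The changes were also small. The median of the absolute log2 fold change was 0.16 over the 49 members and 0.34 over all genes tested, and 40 of the 49 lay within the middle 50% of all genes, from -0.36 to 0.31. No member changed at least 2-fold, as 14.5% of all genes did. None passed a test against a change of 1.5-fold (edgeR's glmTreat), as 16.7% of all genes did, although the fitted falls of Psmd5 and Psmg3 were each 1.58-fold. The median log2 fold change was -0.029 over the members and -0.0021 over all genes.

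The split between rises and falls depended on the scaling. With library sizes alone, which moved the median of all genes to -0.089, the members had 6 rises and 18 falls, and with limma on log2(TPM + 1), where that median was -0.094, they had 4 rises and 15 falls. Leaving out PM_control replicate 1 left 6 rises and 11 falls. Over all 19 alternative settings, 11 members kept their call and direction, of which 4 were higher (Psmb9, Psmd2, Psmd4 and Psmd8) and 7 lower (Psma4, Psmc3ip, Psmd5, Psmd6, Psmd11, Psme3 and Psmg3). The share of all genes tested that kept theirs was not computed, so this count has no background to be set against.

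**Figure D2:**
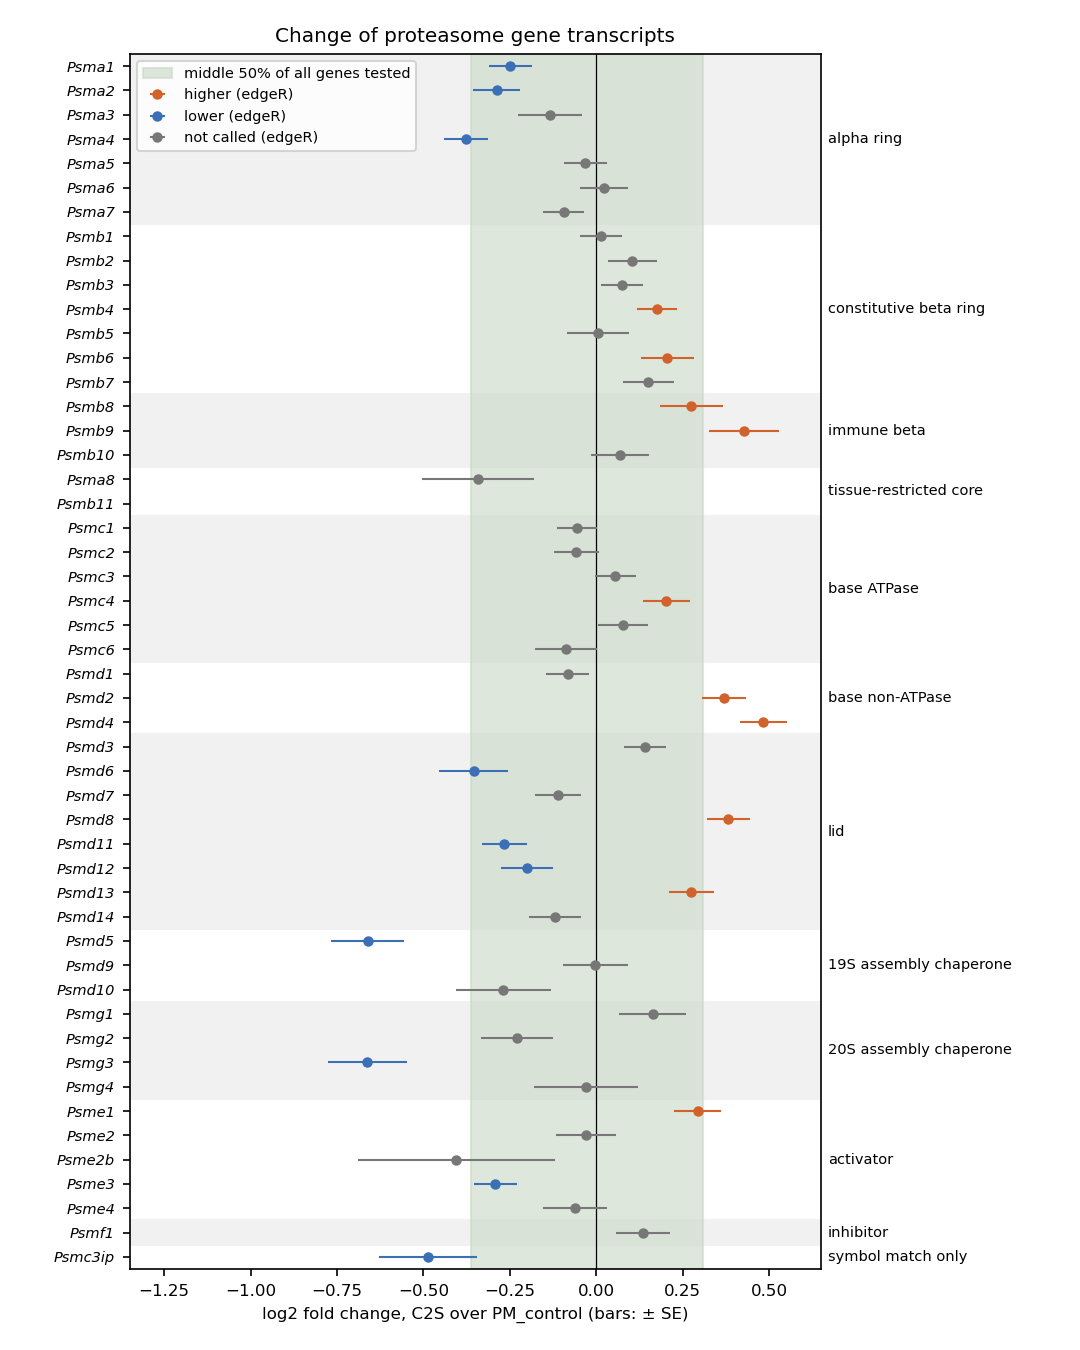
Log2 fold change (C2S over PM_control) of the 49 tested proteasome genes with its SE, coloured by the edgeR call and grouped by role, beside the middle 50% of all genes tested (shaded). The values run from -0.66 (Psmg3 and Psmd5) to 0.48 (Psmd4), and most lie inside the shaded range.

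The alpha ring and the constitutive beta ring, which form the core, leaned to opposite sides under TMM scaling. With the GC trend removed the median was 0.0067 in the alpha ring and 0.12 in the beta ring. On log2(TPM + 1) these medians were -0.19 and -0.0044. Of 7 alpha subunits, which gate the entrance of the barrel, 3 were lower, 4 did not pass and none was higher (median log2 fold change -0.13, or -0.070 without PM_control replicate 3 and -0.21 without PM_control replicate 1). Of 7 constitutive beta subunits, 2 were higher, 5 did not pass and none was lower (median 0.10, or 0.061 without PM_control replicate 2). The beta ring had 0 rises without PM_control replicate 1, 3 without C2S replicate 2 and 1 without any other library. Its 2 rises, Psmb4 and Psmb6, were not called with library sizes alone, on log2(TPM + 1) or with the GC trend removed. With the GC trend removed Psmb7 was called higher in their place. Taken as 1 core of 14 subunits, 2 were higher and 3 lower, with a median of 0.0099.

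Psma4 (ENSMUSG00000032301, chr9:54950790-54958030, GRCm38), an alpha subunit, fell the most of the ring. It had 154, 162 and 173 CPM in the PM_control libraries and 122, 126 and 129 CPM in the C2S libraries. All C2S values were below all control values, and the log2 fold change was -0.38 ± 0.064 (SE; adjusted p = 8.94e-05, edgeR). Psma2 and Psma1, also without overlap, had log2 fold changes of -0.29 ± 0.068 (adjusted p = 0.00166, edgeR) and -0.25 ± 0.063 (adjusted p = 0.00289, edgeR). These 2 calls were lost with a correction for the GC content of genes within each library, under which Psma2 was at 0.025 (adjusted p = 0.758) and Psma1 at -0.14 (adjusted p = 0.0511), and the median of the ring moved to 0.0067. The other alpha subunits, Psma3, Psma5, Psma6 and Psma7, had log2 fold changes from -0.13 to 0.024 with adjusted p-values from 0.188 to 0.787 (edgeR). Psma7 was called lower at this threshold under raw library sizes (adjusted p = 0.0158), on log2(TPM + 1) (0.0317) and with the GC trend removed (0.0496).

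Of the beta subunits without a cutting site, Psmb4 was the only one called. It had 222, 238 and 223 CPM in the PM_control libraries and 264, 252 and 255 CPM in the C2S libraries, without overlap, and a log2 fold change of 0.18 ± 0.058 (adjusted p = 0.0165, edgeR). Psmb1, Psmb2 and Psmb3 had log2 fold changes of 0.014 to 0.10 and adjusted p-values of 0.219 to 0.859 (edgeR). The Psmb4 call was lost in 7 of 19 settings, among them without PM_control replicate 1 (adjusted p = 0.0655) or PM_control replicate 3 (0.0571), when scaled by library size (0.204) and after GC correction (0.059), with adjusted p-values of 0.0115 to 0.231 over all 19.

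Of the 3 constitutive catalytic subunits, Psmb6 alone was called. Psmb5, the chymotrypsin-like site, had 89.4, 83.8 and 91.9 CPM in the PM_control libraries and 97.2, 74.4 and 94.2 CPM in the C2S libraries. The control values lay inside the range of the C2S values, and the log2 fold change was 0.006 ± 0.09 (adjusted p = 0.958, edgeR). Psmb6, the caspase-like site, had 104, 111 and 120.1 CPM in the PM_control libraries and 138, 115 and 133 CPM in the C2S libraries. Its groups overlapped, yet it passed the test with a log2 fold change of 0.21 ± 0.077 (adjusted p = 0.0318, edgeR), a call lost in 8 of 19 settings, with adjusted p-values of 0.00327 to 0.453 over all of them. Those settings included leaving out C2S replicate 1 (adjusted p = 0.126), C2S replicate 3 (0.101), PM_control replicate 1 (0.149) or PM_control replicate 2 (0.0868). Psmb7, the trypsin-like site, had 131, 136 and 144 CPM in the PM_control libraries and 167, 135 and 152 CPM in the C2S libraries. It overlapped and did not pass (log2 fold change 0.15 ± 0.074, adjusted p = 0.0952, edgeR), although it was called higher without C2S replicate 2 (adjusted p = 0.0103) and with the GC trend removed (0.00136). Psmb5 holds the miRNA gene Mir686 in 12.1% of its exon length and Psmb7 shares 11.8% with Nek6 on the other strand, so their counts are uncertain.

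Of the immune subunits, Psmb9 and Psmb8 were called higher and Psmb10 was not. Psmb9 (ENSMUSG00000096727, chr17:34181987-34187764), which takes the place of Psmb6, had 21.3, 21.2 and 20.4 CPM in the PM_control libraries and 27.8, 27.3 and 29.6 CPM in the C2S libraries. The C2S values were all above the control values, and the log2 fold change was 0.43 ± 0.1 (adjusted p = 0.0019, edgeR). Psmb8, which takes the place of Psmb5, had 84.9, 83.1 and 101 CPM in the PM_control libraries and 122, 95.6 and 107 CPM in the C2S libraries. The lowest C2S value was below the highest control value, and the log2 fold change was 0.28 ± 0.091 (adjusted p = 0.0171, edgeR). Psmb10, which takes the place of Psmb7, had 49.7, 55.2 and 54.8 CPM in the PM_control libraries and 60.1, 54.6 and 52.7 CPM in the C2S libraries and a log2 fold change of 0.07 ± 0.084 (adjusted p = 0.502, edgeR), with overlap. The Psmb8 call was lost in 7 of 19 settings. Among them were those without C2S replicate 1 (adjusted p = 0.105), PM_control replicate 1 (0.0748) or PM_control replicate 2 (0.0844). Library sizes alone (0.0977), limma on log2(TPM + 1) (0.281) and removal of the GC trend (0.0604) also ended the call. Over the 19 alternatives its adjusted p ran from 0.00185 to 0.282. Exons of Psmb8 overlap Gm20496 on the other strand over 14.7% of their length, so its counts are uncertain.

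The balance of immune to constitutive catalytic transcripts was set within each library as a ratio of TPM. The ratio of Psmb8 to Psmb5 was 0.633, 0.707 and 0.745 in the PM_control libraries and 0.810, 0.890 and 0.781 in the C2S libraries. The ratio of Psmb9 to Psmb6 was 0.0996, 0.0973 and 0.0943 in the controls and 0.107, 0.117 and 0.108 with C2S. In both pairs each C2S value was above each control value, and the exact two-sided permutation test gave p = 0.1, the smallest that 3 against 3 libraries allow, or 0.15 adjusted over the 3 pairs. On the log2 scale the means of these ratios differed by 0.25 and 0.19. The ratio of Psmb10 to Psmb7 was 0.434, 0.492 and 0.425 in the controls and 0.442, 0.459 and 0.353 with C2S, with overlap (log2 difference -0.11, exact permutation p = 0.6), and the difference was 0.0041 without C2S replicate 3. Immune subunits made up 26.4%, 27.8% and 27.3% of the summed TPM of the 6 catalytic transcripts in the controls and 28.3%, 29.4% and 26.5% with C2S, so these shares overlapped.

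**Figure D3:**
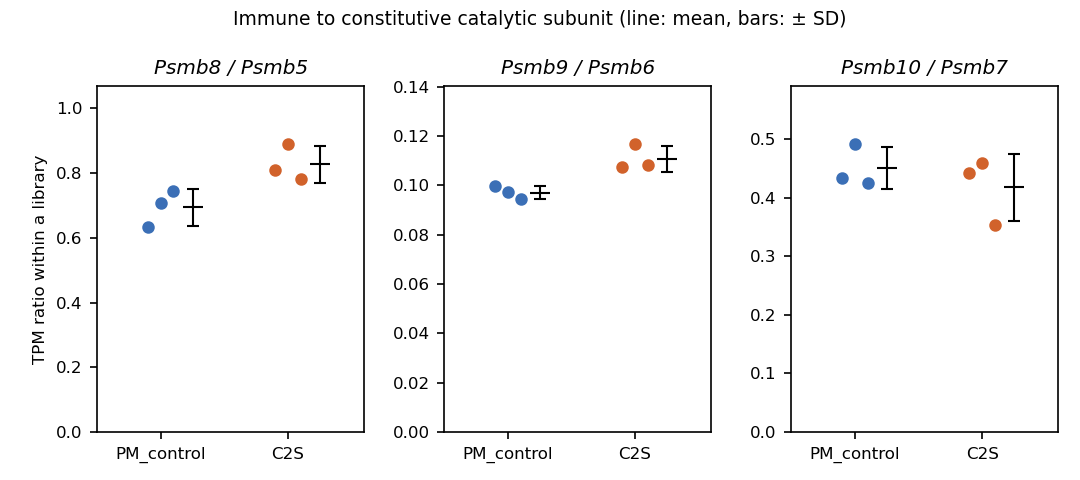
Ratio of the TPM of each immune catalytic subunit to that of the constitutive subunit it replaces, 1 point per library, with the mean and SD of the 3 libraries beside the points. The first 2 pairs are higher in every C2S library than in any control library, and Psmb10 to Psmb7 overlaps.

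The start regions of both subunits of the first 2 pairs are shown because the ratios of these pairs did not overlap between the groups, although their test did not pass. Each line gives 300 bases of the RefSeq promoter table (GRCm38.p6), from 250 before the start site to 50 from it on, 5′ to 3′ on the gene's strand. Capitals mark matches on either strand to TGACNNNGC (the core of the antioxidant response element, which NRF1 and NRF2 bind with small MAF proteins), CCAAT (the CCAAT box), TTCNNNGAA (the GAS element) and a pair of GAAA 2 bases apart (the core of the interferon response element, here ISRE core). The RefSeq starts of Psmb8 and Psmb9 lie 474 and 434 bases downstream of the GENCODE starts. The windows are chr14:54617946-54618245 (minus strand) for Psmb5, chr17:34197945-34198244 (plus) for Psmb8, chr11:70525107-70525406 (plus) for Psmb6 and chr17:34187281-34187580 (minus) for Psmb9.
Psmb5: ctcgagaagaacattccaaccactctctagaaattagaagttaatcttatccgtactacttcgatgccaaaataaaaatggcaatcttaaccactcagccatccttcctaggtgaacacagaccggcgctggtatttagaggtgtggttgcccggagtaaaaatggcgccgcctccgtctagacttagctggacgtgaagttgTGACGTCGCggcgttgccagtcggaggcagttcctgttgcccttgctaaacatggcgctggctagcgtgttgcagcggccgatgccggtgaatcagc
Psmb8: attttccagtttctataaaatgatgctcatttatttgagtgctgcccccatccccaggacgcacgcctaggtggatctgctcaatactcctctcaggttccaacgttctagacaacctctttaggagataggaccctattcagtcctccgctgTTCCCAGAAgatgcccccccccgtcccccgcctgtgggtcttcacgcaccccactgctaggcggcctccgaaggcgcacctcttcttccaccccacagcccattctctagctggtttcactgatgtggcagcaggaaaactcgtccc
Psmb6: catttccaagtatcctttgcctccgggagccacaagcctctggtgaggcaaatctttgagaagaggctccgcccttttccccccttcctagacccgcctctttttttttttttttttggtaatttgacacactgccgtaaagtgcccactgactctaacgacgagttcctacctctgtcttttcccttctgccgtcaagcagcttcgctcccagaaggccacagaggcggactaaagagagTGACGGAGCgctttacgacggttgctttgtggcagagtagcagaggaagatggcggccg
Psmb9: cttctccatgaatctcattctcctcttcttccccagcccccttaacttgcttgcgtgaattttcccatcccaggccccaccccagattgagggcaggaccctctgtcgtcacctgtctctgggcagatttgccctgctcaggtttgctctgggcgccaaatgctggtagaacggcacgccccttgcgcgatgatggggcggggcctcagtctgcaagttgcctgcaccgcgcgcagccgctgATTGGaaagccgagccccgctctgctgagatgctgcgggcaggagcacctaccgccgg

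The capitals in Psmb5 and Psmb6 are TGACNNNGC matches, those in Psmb8 a TTCNNNGAA match and those in Psmb9 a CCAAT match on the other strand. The Psmb9 window also holds the RefSeq start of Tap1, a peptide transporter gene that runs the opposite way from 226 bases further along chromosome 17. Tap1 had 44.7, 46.7 and 48.1 CPM in the PM_control libraries and 74.4, 76.5 and 74.4 CPM in the C2S libraries, without overlap, and a log2 fold change of 0.69 ± 0.077 (adjusted p = 9.33e-07, edgeR). Psmb9 shares 5.79% of its exon length with Tap1 on the other strand. Reads there may not be told apart, since the strand setting is not known, although neither gene had non-whole counts. Of the 50 genes, 42 had a window in the table, 45 windows in all. TGACNNNGC was in 13.3% of them and in 12.4% of all 32851 windows, CCAAT in 33.3% and 37.4%, TTCNNNGAA in 6.67% and 8.30%, and the ISRE core in 11.1% and 3.44%. The cyclic AMP response element, searched as its palindromic octamer, was in none of the members' windows and in 1.79% of all. The 6 members with TGACNNNGC were Psmb5, Psmb6, Psmc6, Psmd9, Psmd12 and Psme4, of which 1 was called higher and 1 lower, and the 5 with the ISRE core were Psmb3, Psmd4, Psmd9, Psme1 and Psmg4, of which 2 were called higher. Among all 42 members with a window, 10 were called higher and 10 lower. The RefSeq start of the Psmd9 window, which counts for both motifs, lies 58777 bases downstream of the GENCODE start. A match is a description of these letters and not a site.

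The 19S particle held the largest rise of the set and 3 of its falls. Of its 17 subunits that match the symbol rule, 5 were higher, 3 were lower and 9 did not pass. Their median log2 fold change was -0.056. The core had 5 called of 14, in both directions as well. The summed TPM of the core was 1.37, 1.34 and 1.43 times that of the 19S particle in the controls and 1.30, 1.26 and 1.31 times with C2S, without overlap. The summed TPM of the alpha ring was 0.821, 0.843 and 0.890 times that of the constitutive beta ring in the controls and 0.680, 0.773 and 0.713 times with C2S, also without overlap. No test was run on these sums, and 3 against 3 libraries allow an exact permutation p of 0.1 at best. For core and 19S particle the subunit medians, 0.0099 and -0.056, lay the other way from the sums. Abundant subunits weigh most in a sum, and the part of single subunits was not tested.

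In the base, the ATPases that unfold substrates had 1 of 6 called and a median absolute log2 fold change of 0.068. Psmc4 had 125, 147 and 137 CPM in the PM_control libraries and 151, 163 and 155 CPM in the C2S libraries, with every C2S value above every control value, and a log2 fold change of 0.20 ± 0.068 (adjusted p = 0.0185, edgeR). That call was lost without C2S replicate 2 (adjusted p = 0.0549), without PM_control replicate 1 (0.119), with library sizes alone (0.165), on log2(TPM + 1) (0.246) and with the GC trend removed (0.0947), with adjusted p-values of 0.00882 to 0.248 over all 19. Psmc1, Psmc2, Psmc3, Psmc5 and Psmc6 had log2 fold changes from -0.088 to 0.078 and adjusted p-values of 0.373 to 0.468 (edgeR).

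The other base subunits in the set are the scaffolds Psmd1 and Psmd2 and the ubiquitin receptor Psmd4. Psmd4 (ENSMUSG00000005625, chr3:95032694-95042614) rose more than any other member. It had 154, 165 and 165 CPM in the PM_control libraries and 249, 214 and 214 CPM in the C2S libraries, without overlap, a 1.40-fold level and a log2 fold change of 0.48 ± 0.068 (adjusted p = 1.37e-05, edgeR). Psmd2, the largest in counts of all members, had 561, 579 and 510.5 CPM in the PM_control libraries and 713, 742 and 679.9 CPM in the C2S libraries, without overlap, and a log2 fold change of 0.37 ± 0.064 (adjusted p = 0.000104, edgeR). Psmd1 had 275, 283 and 269 CPM in the PM_control libraries and 263, 278 and 239 CPM in the C2S libraries, with overlap, and did not pass (log2 fold change -0.083 ± 0.063, adjusted p = 0.282, edgeR). The start region of Psmd4, chr3:95042565-95042864 on the minus strand, is shown for its place at the top of the set, with the same marks.
Psmd4: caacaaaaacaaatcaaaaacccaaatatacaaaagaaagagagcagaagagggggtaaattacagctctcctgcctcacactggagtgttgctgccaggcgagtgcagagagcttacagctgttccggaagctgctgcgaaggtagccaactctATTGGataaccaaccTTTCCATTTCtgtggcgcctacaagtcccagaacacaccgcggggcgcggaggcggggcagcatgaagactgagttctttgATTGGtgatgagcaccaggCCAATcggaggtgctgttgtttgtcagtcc

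Among its capitals are CCAAT matches and, between the first and second of them, 1 match to the ISRE core on the other strand.

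The lid, which holds the deubiquitinase Psmd14, had 2 of 8 members higher and 3 lower. Psmd8, which links lid and base, had 147, 168 and 160.0 CPM in the PM_control libraries and 206, 204 and 209 CPM in the C2S libraries. The C2S values stood above all control values, and the log2 fold change was 0.38 ± 0.063 (adjusted p = 6.59e-05, edgeR). Psmd13 was also higher without overlap, at 0.28 ± 0.066 (adjusted p = 0.00196, edgeR), and the limma fit on log2(TPM + 1) did not call it (adjusted p = 0.272). Its exons overlap Sirt3 on the other strand over 10.1% of their length, so its counts are uncertain.

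Psmd6 fell the most of the lid. It had 78.3, 83.8 and 95.8 CPM in the PM_control libraries and 59.6, 78.3 and 64.2 CPM in the C2S libraries, and the highest C2S value was level with the lowest control value, at a log2 fold change of -0.35 ± 0.1 (adjusted p = 0.00642, edgeR). Psmd11 had 199, 206 and 195 CPM in the PM_control libraries and 156, 164 and 181 CPM in the C2S libraries, without overlap, at -0.27 ± 0.065 (adjusted p = 0.00228, edgeR). Psmd12 was at -0.20 ± 0.076 (adjusted p = 0.0342, edgeR), with overlap, and its call was lost with DESeq2 (adjusted p = 0.075), with the GC trend removed (0.214) and without C2S replicate 1 (0.0988), C2S replicate 3 (0.1), PM_control replicate 2 (0.148) or PM_control replicate 3 (0.11). Psmd3, Psmd7 and Psmd14 did not pass, with log2 fold changes of 0.14, -0.11 and -0.12 and adjusted p-values of 0.0542, 0.169 and 0.19 (edgeR). Psmd14 had no stable direction, since it was called lower when scaled by library size (-0.21, adjusted p = 0.0297) and higher after GC correction (0.19, adjusted p = 0.0346). Psmd7 was called lower in both (adjusted p = 0.0177 and 0.0273).

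The assembly chaperones of the set, which are not part of the finished proteasome, had 2 falls and no rise among 7 tested. Their median log2 fold change was -0.23. The maturation factor Pomp, outside the symbol rule, is counted below with the proteins bound to the proteasome. Psmd5, a chaperone of the 19S base, had 46.7, 43.3 and 48.5 CPM in the PM_control libraries and 30.3, 33.1 and 24.2 CPM in the C2S libraries, without overlap, and a log2 fold change of -0.66 ± 0.11 (adjusted p = 5.61e-05, edgeR). Psmg3, a chaperone of the alpha ring, had 27.3, 28.7 and 28.5 CPM in the PM_control libraries and 20.04, 15.8 and 17.4 CPM in the C2S libraries, without overlap, and a log2 fold change of -0.66 ± 0.11 (adjusted p = 0.000114, edgeR). These were the 2 largest falls among all members under TMM scaling.

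The other base chaperones did not pass. Psmd10, also known as gankyrin, had 18.5, 23.9 and 23.4 CPM in the PM_control libraries and 15.5, 19.2 and 19.9 CPM in the C2S libraries, with overlap (log2 fold change -0.27 ± 0.14, adjusted p = 0.106, edgeR), and was called lower without PM_control replicate 1 (adjusted p = 0.0345). Psmd9 had 30.5, 29.1 and 29.5 CPM in the PM_control libraries and 29.9, 28.1 and 30.9 CPM in the C2S libraries, nearly level (log2 fold change -0.0024 ± 0.094, adjusted p = 0.984, edgeR), and it shares 25.5% of its exon length with Gm26745 on the other strand, so its counts are uncertain.

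The other core chaperones did not pass either. Psmg1, which pairs with Psmg2 on the alpha ring, had 32.3, 33.9 and 30.2 CPM in the PM_control libraries and 34.4, 39.9 and 33.9 CPM in the C2S libraries, with overlap (log2 fold change 0.16 ± 0.097, adjusted p = 0.163, edgeR). Psmg2 had 26.1, 25.6 and 28.2 CPM in the PM_control libraries and 21.4, 24.0 and 22.9 CPM in the C2S libraries, without overlap (log2 fold change -0.23 ± 0.1, adjusted p = 0.0742, edgeR), and was called lower with library sizes alone (adjusted p = 0.0176) and on log2(TPM + 1) (0.0133). Psmg4, the partner of Psmg3, had 21.01, 17.9 and 19.9 CPM in the PM_control libraries and 16.3, 17.0 and 24.6 CPM in the C2S libraries, with C2S replicate 3 the highest of all 6 (log2 fold change -0.029 ± 0.15, adjusted p = 0.883, edgeR).

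The activators, which open the core in place of the 19S particle, moved in different directions. Psme1, the alpha subunit of the interferon-inducible activator PA28, had 113, 124 and 117 CPM in the PM_control libraries and 155, 142 and 135 CPM in the C2S libraries. The C2S values were above all control values, and the log2 fold change was 0.29 ± 0.068 (adjusted p = 0.00155, edgeR), and the limma fit on log2(TPM + 1) did not call it (adjusted p = 0.0858). Its partner Psme2 had 69.6, 81.2 and 72.2 CPM in the PM_control libraries and 80.8, 66.4 and 70.9 CPM in the C2S libraries, with overlap, and did not pass (log2 fold change -0.029 ± 0.088, adjusted p = 0.792, edgeR). Psme2b, a copy of Psme2 in 1 exon, had 4.40, 5.56 and 6.09 CPM in the PM_control libraries and 4.81, 2.16 and 4.98 CPM in the C2S libraries, with overlap and a log2 fold change of -0.40 ± 0.28 (adjusted p = 0.241, edgeR). Its counts, 18 to 58 per library, are low and so uncertain. Neither Psme2b nor Psme2 had non-whole counts, and whether reads were misplaced between these like genes was not tested.

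Psme3, which forms the nuclear activator PA28 gamma, had 268, 297 and 277 CPM in the PM_control libraries and 227, 242 and 219.7 CPM in the C2S libraries. All C2S values were below all control values, and the log2 fold change was -0.29 ± 0.062 (adjusted p = 0.000747, edgeR). Psme4, the large activator PA200, had 109, 91.9 and 96.0 CPM in the PM_control libraries and 94.9, 108 and 82.3 CPM in the C2S libraries, with overlap (log2 fold change -0.061 ± 0.092, adjusted p = 0.591, edgeR). Psmf1, named as an inhibitor of the core, had 48.4, 49.4 and 50.3 CPM in the PM_control libraries and 54.2, 54.7 and 53.7 CPM in the C2S libraries. Its groups did not overlap, but it did not pass the test (log2 fold change 0.14 ± 0.077, adjusted p = 0.147, edgeR).

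The remaining 3 members are outside the usual proteasome. Psma8, the alpha subunit of the testis, had 10.6, 10.3 and 10.9 CPM in the PM_control libraries and 8.74, 9.14 and 7.25 CPM in the C2S libraries, without overlap, and did not pass (log2 fold change -0.34 ± 0.16, adjusted p = 0.0824, edgeR). Psmb11, the beta subunit of the thymus, had 1 count in PM_control replicate 2 and none elsewhere, below the count filter. Psmc3ip, a recombination protein of meiosis that shares the symbol but is no proteasome subunit, had 16.5, 18.2 and 18.1 CPM in the PM_control libraries and 11.3, 11.5 and 14.8 CPM in the C2S libraries, without overlap (log2 fold change -0.49 ± 0.14, adjusted p = 0.00818, edgeR), and it shares 21.2% of its exon length with Mlx on the other strand, so its counts are uncertain.

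The direction of change among the members went with the base composition of their transcripts. The median GC content was 53.2% in the 10 higher members, 49.3% in the 29 that did not pass and 46.6% in the 10 lower ones. Across the 49 tested members, Pearson's r between GC content and log2 fold change was 0.46 (Spearman's rho 0.55), and across 10570 nuclear protein-coding genes it was 0.19 (rho 0.24). These correlations are across genes that share the same 6 libraries and are descriptions. After the GC correction of each library, r across the members was 0.066, and 8 were called higher and 9 lower. The GC trend was fitted over nuclear protein-coding genes tested, the members among them, so a fall of r is built into the correction. Of the 20 calls, 13 were kept, and those of Psma1, Psma2, Psmb4, Psmb6, Psmb8, Psmc4 and Psmd12 ended, while Psma7, Psmb7, Psmd7 and Psmd14 were gained. Log2 fold change had an r of -0.016 with log2 exon length and of 0.43 with log2 control TPM across the members.

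**Figure D4:**
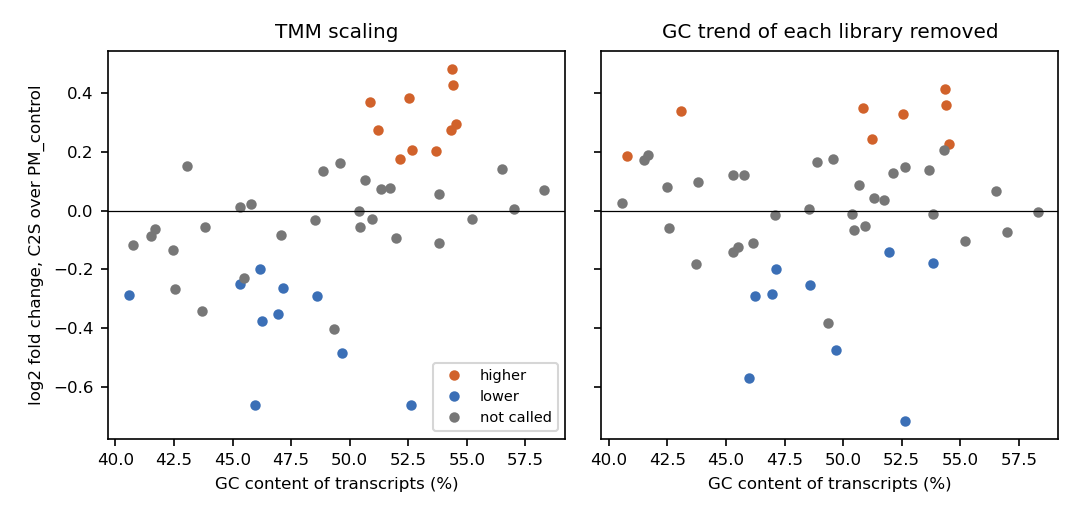
Log2 fold change (C2S over PM_control) of the 49 tested proteasome genes against the GC content of their transcripts, with TMM scaling (left) and with the GC trend of each library removed (right), coloured by the call. On the left r is 0.46 and the higher members lie above 50% GC, and on the right r is 0.066, a fall that is built into the correction.

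Genes that act on or around the proteasome were called about as often as all genes tested, more of them as higher than as lower. Of 55 tested genes in 6 lists that are not members, 25 were higher and 7 lower (median log2 fold change 0.15). That is 58.2% called, near the 55.4% of all genes tested. Of all genes tested, 27% were called higher and 28.4% lower. The lists were chosen with earlier results of these data known. The split of the 55 into higher and lower was 19 and 12 with library sizes alone, 16 and 6 on log2(TPM + 1) and 34 and 4 with the GC trend removed. The genes called with at least a 2-fold change were 6, Maff, Zfand2a, Zfand5, Mafk, Ubb and Ube3a, a smaller share of the 55 than the 14.5% among all genes tested.

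Of 11 genes in the list of proteins bound to the proteasome, which also holds the maturation factor Pomp, 4 were higher and 2 lower. Their median was -0.081, and 54.5% were called. The lower ones numbered 6 under library sizes alone and 1 without C2S replicate 1, C2S replicate 3 or PM_control replicate 3. Zfand5, a zinc finger protein that binds the 26S proteasome, had 48.5, 53.1 and 48.9 CPM in the PM_control libraries and 352, 363 and 344 CPM in the C2S libraries and a log2 fold change of 2.81 ± 0.065 (adjusted p = 2.31e-15, edgeR). Zfand2a, a stress-induced relative that binds the 19S particle, had 21.1, 19.6 and 20.4 CPM in the PM_control libraries and 172, 142 and 161 CPM in the C2S libraries and a log2 fold change of 2.96 ± 0.088 (adjusted p = 6.7e-14, edgeR). In both every C2S value was several times any control value. Ube3a, a ubiquitin ligase, was at 111 ± 7.16 CPM in the controls and 55.4 ± 2.48 CPM with C2S (mean ± SD of 3 libraries each), -1.001 ± 0.076 (adjusted p = 9.35e-09, edgeR) on the log2 scale. Adrm1, also a ubiquitin receptor of the base and chosen after its value was seen, was higher, 137 ± 1.85 CPM in the controls and 178 ± 3.99 CPM with C2S, at 0.37 ± 0.058 (adjusted p = 3.43e-05, edgeR) on the log2 scale, beside 0.48 for Psmd4. Adrm1 had non-whole counts, so the size of its change is uncertain.

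Of 5 ubiquitin, ubiquitin-like and E1 enzyme genes, 2 were higher and 1 lower (median 0.15), which is 60% called. Only 1 was higher under library sizes alone or on log2(TPM + 1). Ubb, a polyubiquitin gene, had 379.9, 365 and 363 CPM in the PM_control libraries and 1086, 987 and 982 CPM in the C2S libraries, without overlap, and a log2 fold change of 1.46 ± 0.062 (adjusted p = 5.02e-12, edgeR). It had non-whole counts, a sign of shared reads, so its size is uncertain. Uba1, the main E1 enzyme, rose from 723 ± 35.5 to 836 ± 34.6 CPM (log2 fold change 0.21 ± 0.062, adjusted p = 0.00791, edgeR), although its groups overlapped in TPM. Uba6, the second E1 enzyme, fell from 49.3 ± 3.26 to 27.8 ± 2.79 CPM (log2 fold change -0.83 ± 0.097, adjusted p = 1.63e-06, edgeR).

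Of 9 genes of the NRF1 pathway, which raises proteasome genes when the proteasome is inhibited, 5 were higher and 2 lower (median 0.49). That is 77.8% called, where 55.4% of all genes tested were called. Only 1 was lower with RLE scaling, with DESeq2, on both log2 TPM scales or with the GC trend removed. The same held without C2S replicate 1, C2S replicate 3, PM_control replicate 1 or PM_control replicate 2. The small MAF partners Maff and Mafk had 0.367, 0.708 and 1.15 and 32.5, 29.8 and 31.4 CPM in the controls against 68.7, 63.7 and 68.8 and 191, 163 and 179 CPM with C2S, log2 fold changes of 6.50 ± 0.18 (adjusted p = 2.13e-14, edgeR) and 2.51 ± 0.079 (adjusted p = 1.02e-13, edgeR). The control counts of Maff were 4, 7 and 11. Nfe2l1, which encodes NRF1 and was chosen after its value was seen, rose from 215 ± 6.51 to 370.2 ± 26.1 CPM (log2 fold change 0.79 ± 0.063, adjusted p = 1.87e-08, edgeR), while Ddi2, the protease that activates NRF1, fell from 178 ± 9.32 to 127 ± 5.80 CPM (log2 fold change -0.48 ± 0.064, adjusted p = 6.93e-06, edgeR) and overlaps Rsc1a1 over 18.3% of its exon length. Ddi2 had non-whole counts as well, so its counts are uncertain.

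Of 10 partners of the immunoproteasome in class I presentation, 4 were higher and none lower (median 0.15), which is 40.0% called, below the 55.4% of all genes tested. The rises numbered 2 on log2(TPM + 1) and 7 with the GC trend removed. Tapbp rose from 286 ± 15.7 to 377 ± 21.9 CPM (log2 fold change 0.40 ± 0.063, adjusted p = 4.81e-05, edgeR), although its groups overlapped in TPM and it overlaps Gm19412 over 24.9% of its exon length. The interferon factor Irf1 (log2 fold change 0.19 ± 0.14, adjusted p = 0.268, edgeR) and the class I regulator Nlrc5 (log2 fold change 0.11 ± 0.097, adjusted p = 0.371, edgeR), chosen after their values were seen, did not pass.

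Of 13 shuttle factors and cofactors of the unfoldase p97, 5 were higher and 1 lower (median 0.15), which is 46.2% called. The rises numbered 1 with DESeq2 or library sizes alone, 2 on log2(TPM + 1) or without the count filter, 2 without C2S replicate 1, PM_control replicate 1 or PM_control replicate 3, and 3 without C2S replicate 3 or PM_control replicate 2. Faf1 was at 0.53 ± 0.078 (adjusted p = 2.13e-05, edgeR), Ufd1 at 0.28 ± 0.091 (adjusted p = 0.0154, edgeR) and the shuttle Ubqln2 at -0.56 ± 0.093 (adjusted p = 7.99e-05, edgeR). Of 7 ubiquitin ligase and turnover genes, 5 were higher and 1 lower (median 0.50). That is 85.7% called, beside 55.4% of all genes tested. The ligases were Ubr4 at 0.59 ± 0.073 (adjusted p = 3.21e-06, edgeR) and Rnf181 at 0.82 ± 0.11 (adjusted p = 4.88e-06, edgeR). The ligase scaffold Cul3 was at -0.30 ± 0.067 (adjusted p = 0.00123, edgeR).

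**Figure D5:**
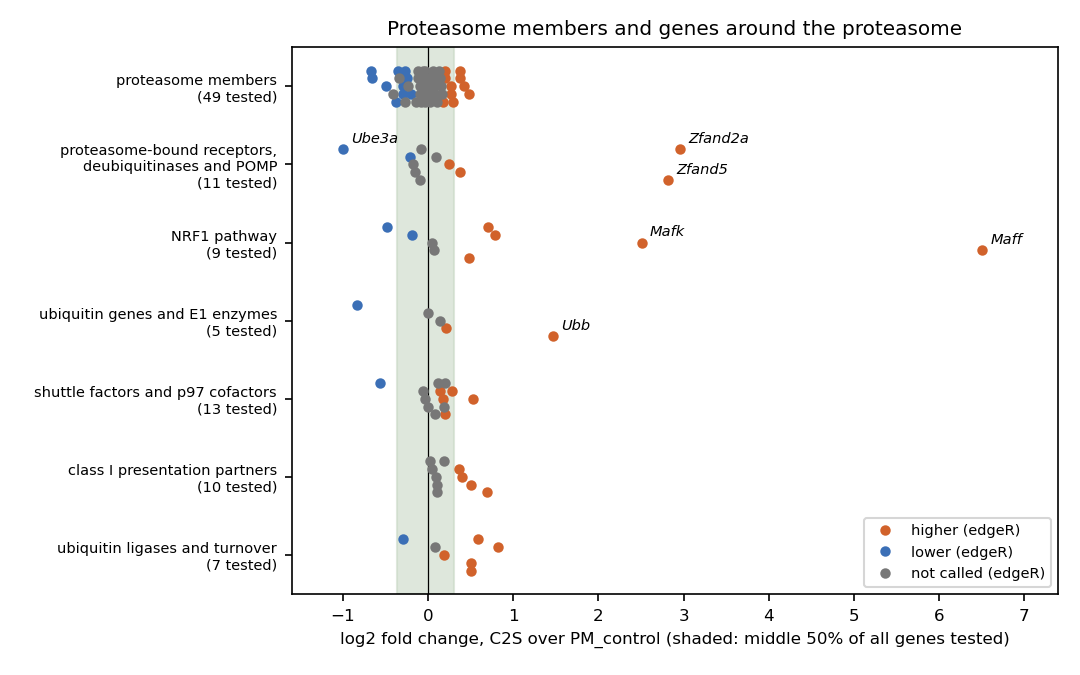
Log2 fold change (C2S over PM_control) of the proteasome members and of 6 lists of genes around the proteasome, coloured by the edgeR call, with the middle 50% of all genes tested shaded. All members lie between -0.66 and 0.48, while Zfand2a, Zfand5, Mafk, Maff and Ubb lie above 1.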

How the data were processed

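RNA of 6 RAW264.7 libraries was sequenced. Per the series' design text and the submitters' processing notes, the authors trimmed reads with fastp, aligned them with STAR to mm10 and quantified genes with RSEM. The sources used here name no versions, annotation or strand setting. Per the file headers, each deposited table gives expected counts, TPM and FPKM per gene. FPKM was not used.

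Expected counts were rounded and tested with edgeR 4.0.16 (R 4.3.3): filterByExpr (minimum count 10, minimum total 15), TMM scaling, a quasi-likelihood F test on group alone and Benjamini-Hochberg adjustment over 11561 genes at 0.05. The SE is the log2 fold change divided by the root of F. The deposited TPM served for comparisons between genes and for ratios. Alternatives used other scalings and filters, DESeq2 1.42.0, limma 3.58.1, a GC correction, a replicate block and leaving out each library. The code was tested on simulated data.

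GENCODE M21 (GRCm38) gave symbols, coordinates, GC content and exon overlaps for 52489 of 52636 gene IDs, and RefSeq (GRCm38.p6) gave promoter windows. A gene with at least 10% of its exon length in another gene is called uncertain. Total counts ranged from 8594473 to 10665867, so 3 counts are worth 0.281 to 0.349 CPM, and the filter kept 99.9% of counts. No libraries were identical.

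Named with full values were all catalytic and immune subunits, chaperones, activators and the inhibitor, in each other class the called member with the largest rise and fall, and in each related list up to 2 called genes per direction by adjusted p without overlap. The members and lists were chosen with earlier results of these data known. Paaf1 was not analysed here and Usp13 was at 0 in all libraries. Of the related lists, 3 genes are not reported here.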

Additional observations from a re-analysis of the deposited data

How the results depend on the processing

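Across 19 alternatives the count of higher members, 10, ranged from 4 to 11. It was 6 with library sizes alone and 4 with limma on log2(TPM + 1) or log2(TPM + 0.1), and 6 to 10 when 1 library was left out. Lower members, also 10, numbered 18 with library sizes alone and 9 to 11 when 1 library was left out. The median log2 fold change of the core, 0.0099, was -0.078 with library sizes alone, -0.10 with log2(TPM + 1), -0.11 with log2(TPM + 0.1), 0.060 with the GC trend removed and -0.012 to 0.020 when 1 library was left out. That of the 19S particle, -0.056, was -0.14, -0.16, -0.16 and 0.068 under the same 4 settings and -0.084 to -0.0094 when 1 library was left out. The log2 difference of the Psmb10 to Psmb7 ratio, taken from fitted changes, was -0.34 with the GC trend removed. The 2 members called with a fitted change of 1.5-fold numbered 0 with edgeR's glmTreat. The cause of these shifts was not tested.

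Of the 49 tested members, 18 turned direction in at least 1 alternative, of which Psma2 was the only one called with TMM scaling. The like share over all genes tested was not computed. With the GC trend removed Psmd14 went from -0.12 to 0.19, past the threshold in edgeR's quasi-likelihood test (adjusted p = 0.0346, where with library sizes alone it was -0.21 at 0.0297), Psma3 from -0.13 to 0.079 and Psmc6 from -0.088 to 0.17. Psmb2 went from 0.10 to -0.0044 on log2(TPM + 1). Psmd9 was at 0.010 with RLE scaling and -0.031 to 0.032 when 1 library was left out, Psmg4 was at -0.24 to 0.090, and Psme2 at -0.11 to 0.034. Psme4 was at 0.19 with the GC trend removed and at -0.16 to 0.034 when 1 library was left out. Psma2, at -0.29 with TMM scaling, was at 0.025 with the GC trend removed. Psmb5 was at -0.081 with library sizes alone, -0.11 and -0.12 with log2(TPM + 1) and log2(TPM + 0.1), -0.016 without the count filter, -0.0015 with the replicate block, -0.074 with the GC trend removed and -0.061 to 0.11 when 1 library was left out. Psmb10 was at -0.018 with library sizes alone, -0.077 and -0.078 on the 2 TPM scales and -0.0042 with the GC trend removed.

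Libraries of the 2 groups share replicate numbers in their titles. The correlations of same-numbered deviations were -0.011, 0.074 and 0.042, and C2S replicate 1 correlated best with PM_control replicate 3 (0.083), so the numbers were not taken as pairs. With the replicate block 11 members were higher and 10 lower, and 6489 genes were called. Depth limits Psma8, Psme2b and Psmb11 the most.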
